A study of Homo sapiens with 18 samples.

Results

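The genes described here are 41 genes of sterol and fatty acid metabolism, taken as a named list out of the 58051 genes in the count tables. By role they are 7 genes of the mevalonate pathway, 10 enzymes that turn its product into cholesterol and 3 regulators of these pathways. A further 5 are listed under cholesterol export, among them MYLIP, which acts on lipoprotein receptors. The others are 2 genes of lipid storage, 5 genes of fatty acid synthesis and desaturation, 5 genes of fatty acid beta oxidation and 4 genes of lipid uptake, binding and breakdown. After a filter on low counts, 40 of the 41 were among the 15037 genes tested. The exception was FABP4, a fatty acid binding protein of adipocytes and macrophages, with 61 counts in all 18 libraries together.

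All libraries came from THP-1, a human monocytic leukaemia cell line that phorbol ester (PMA) turns into macrophage-like cells. The cells carried 1 of 3 retroviral vectors with GFP: NIC1, which expresses the MYC-tagged intracellular domain of NOTCH1 (the active form of this receptor), DNMAML, which expresses a dominant-negative Mastermind-like protein that sits in the Notch transcription complex without activating it, or IRES, the empty vector. GFP-positive cells were sorted and held for 48 h in 5 ng/ml PMA. They were given 20 ng/ml IL-4 for 3 h or left unstimulated. The empty-vector and unstimulated groups had thus been transduced, sorted and treated with PMA as well. The 6 groups, NIC1 with IL-4, NIC1 unstimulated, DNMAML with IL-4, DNMAML unstimulated, IRES with IL-4 and IRES unstimulated, have 3 libraries each, numbered by experiment 1, 2 and 3. A single leukaemia line served throughout, and because the labels do not say that libraries of a group came from separate cultures, the p-values cover spread among libraries that may in part be technical.

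Cells make cholesterol from acetyl-CoA through the mevalonate pathway. The transcription factors SREBP-2 and SREBP-1, encoded by SREBF2 and SREBF1, switch on the genes of sterol and of fatty acid synthesis when membrane sterol is low, and INSIG1 holds these factors back in the endoplasmic reticulum. Surplus cholesterol is exported by the transporters ABCA1 and ABCG1 to apolipoproteins such as APOE, or is esterified by SOAT1 and kept in lipid droplets coated with PLIN2. In macrophages the receptors LXR and PPAR control much of the export and storage programme, and IL-4, acting through STAT6, drives the alternative state in which fatty acid uptake and oxidation are prominent.

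Reads counted in genes numbered 12410668 to 15099788 in the 18 libraries. Levels are given as CPM, the count of a gene relative to the library's total, scaled between libraries by the trimmed mean of M values. The IL-4 response gene CISH averaged 114 ± 12.9 CPM in IRES cells with IL-4 and 1.57 ± 0.434 CPM in unstimulated IRES cells (SD, n = 3 each). The Notch target HES4 averaged 15.1 ± 3.24 CPM in unstimulated NIC1 cells, 2.65 ± 0.305 CPM in unstimulated DNMAML cells and 3.41 ± 1.27 CPM in unstimulated IRES cells. All 10 macrophage and monocyte markers were detected in every group, with a summed level of 1727 to 2030 CPM over the 18 libraries. Differences in single markers of this list are counted with the markers of other cell types. More genes were detected in DNMAML with IL-4 replicate 3 (25322) and in IRES unstimulated replicate 3 (23179) than in the other 16 libraries (21067 to 21557), and counts of calls without these 2 libraries stand in the closing section. Libraries of experiment 2 stood apart from those of experiments 1 and 3, so each comparison was also fitted with the experiment as a block, and that value is given wherever it altered a call. In bulk RNA, fewer cells that express a gene and less RNA per cell cannot be told apart.

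Per kilobase of exon, the most abundant member was APOE, the apolipoprotein that takes up cell cholesterol, at a mean of 745 CPM per kb over the 18 libraries. Next came ACADVL, the first enzyme of long-chain beta oxidation, at 118, the fatty acid desaturase SCD at 97.2, the apolipoprotein APOC1 at 87.9 and SQLE, the squalene epoxidase of sterol synthesis, at 76.4 CPM per kb. At the low end stood the sterol enzyme HSD17B7 at 1.89, the lipase LPL at 1.35, the exporter ABCG1 at 0.767 and FABP4 at 0.177 CPM per kb. The transcription factor gene SREBF2 (46.5 CPM per kb) lay above SREBF1 (13.5 CPM per kb) in this order.

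Stretches before a RefSeq start of transcription are shown for 3 genes that moved with IL-4 (PLIN2, ABCA1 and SREBF1). They are also shown for SREBF2, the close relative of SREBF1 that was not called, and for DHCR7. The last is the 1 gene called between NIC1 and DNMAML cells without a block. The stretches come from RefSeq on GRCh38.p14 and read 5′ to 3′ along the gene's strand. Capitals mark GC boxes (GGGCGG or its complement) in PLIN2, ABCA1 and SREBF1, the core of a sterol regulatory element (TCACNCCAC) and a CCAAT box in SREBF2, and CCAAT boxes in DHCR7. The PLIN2 stretch (chr9:19127523-19127582, minus strand) covers positions -90 to -31 from the start, ABCA1 (chr9:104928216-104928275, minus strand) -120 to -61 and SREBF1 (chr17:17837007-17837086, minus strand) -100 to -21. The SREBF2 stretch (chr22:41832955-41833014, plus strand) covers -150 to -91 and DHCR7 (chr11:71448434-71448493, minus strand) -100 to -41. The gene positions given with each gene are from GENCODE, where some genes begin farther upstream. The PLIN2 stretch lies inside its GENCODE span (19108375 to 19149290), as does that of DHCR7 (71428193 to 71452868). The ABCA1 stretch crosses the upstream end of its span (104928237), while those of SREBF1 and SREBF2 lie outside theirs. Which start the cells used was not tested.
PLIN2: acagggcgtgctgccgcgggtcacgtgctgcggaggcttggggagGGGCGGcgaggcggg
ABCA1: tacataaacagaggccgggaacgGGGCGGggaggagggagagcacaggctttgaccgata
SREBF1: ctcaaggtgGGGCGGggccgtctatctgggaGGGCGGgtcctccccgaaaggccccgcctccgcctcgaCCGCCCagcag
SREBF2: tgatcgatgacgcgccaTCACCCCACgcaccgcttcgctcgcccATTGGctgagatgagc
DHCR7: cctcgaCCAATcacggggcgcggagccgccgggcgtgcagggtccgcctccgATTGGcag

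A promoter window of 250 bases before to 50 after a RefSeq start was found for 33 of the 41 genes. The other genes were not searched, so the lack of a match for them says nothing. No match of any motif was recorded for SQLE or LPL, and nothing is read from this. Searched on both strands, the sterol regulatory element core was present in 1 of the 33 genes with a window (3.03%), SREBF2, against 1.39% of all 27305 genes with a window. CCAAT boxes were present in 21 of 33 (63.6%), against 39.7% of all genes and 42.6% of the 11092 tested genes with a window. GC boxes were present in 31 of 33 (93.9%), against 48.3% of all and 75.6% of tested genes. A STAT6-type palindrome was found in 3 windows, those of IDI1, SREBF1 and LIPA (9.09%, against 7.80% of all genes). Of these, only the IDI1 match lay wholly before the start (3.03%, against 6.55% of all genes), while those of LIPA and SREBF1 crossed the start or lay past it. An RBPJ-type motif (TGGGAA) was in 4 windows (12.1%, against 28.1%). Exact LXR-type and PPAR-type direct repeats were found in none, against 0.0256% and 0.0293% of all genes. At shares this low, 33 windows would hardly hold any, so the lack of matches says nothing about sites with looser letters. The STAT6-type, LXR-type and PPAR-type motifs are exact repeats with a spacer, and the STAT6-type and RBPJ-type motifs share the letters GAA, so that 1 stretch can hold both. A match is a description of the letters in the window and no more.

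To see how IL-4 acted on these genes, its response was taken as the mean over the 3 constructs and in each construct alone. Over the mean response, 5 of the 40 tested members passed the threshold of 0.05 on the adjusted p of edgeR's quasi-likelihood test (2 higher, 3 lower with IL-4), against 10.2% of all 15037 genes. The lipid droplet coat gene PLIN2 and the cholesterol exporter ABCA1 fell by more than 1 on the log2 scale, SQLE fell less, and SREBF1 and LPL rose. The other 35 members were not called, and 34 of them lay within 0.25 of 0 on the log2 scale. The median log2 change over the 40 members was -0.00236, and over all tested genes it was -0.0104.

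**Figure D1:**
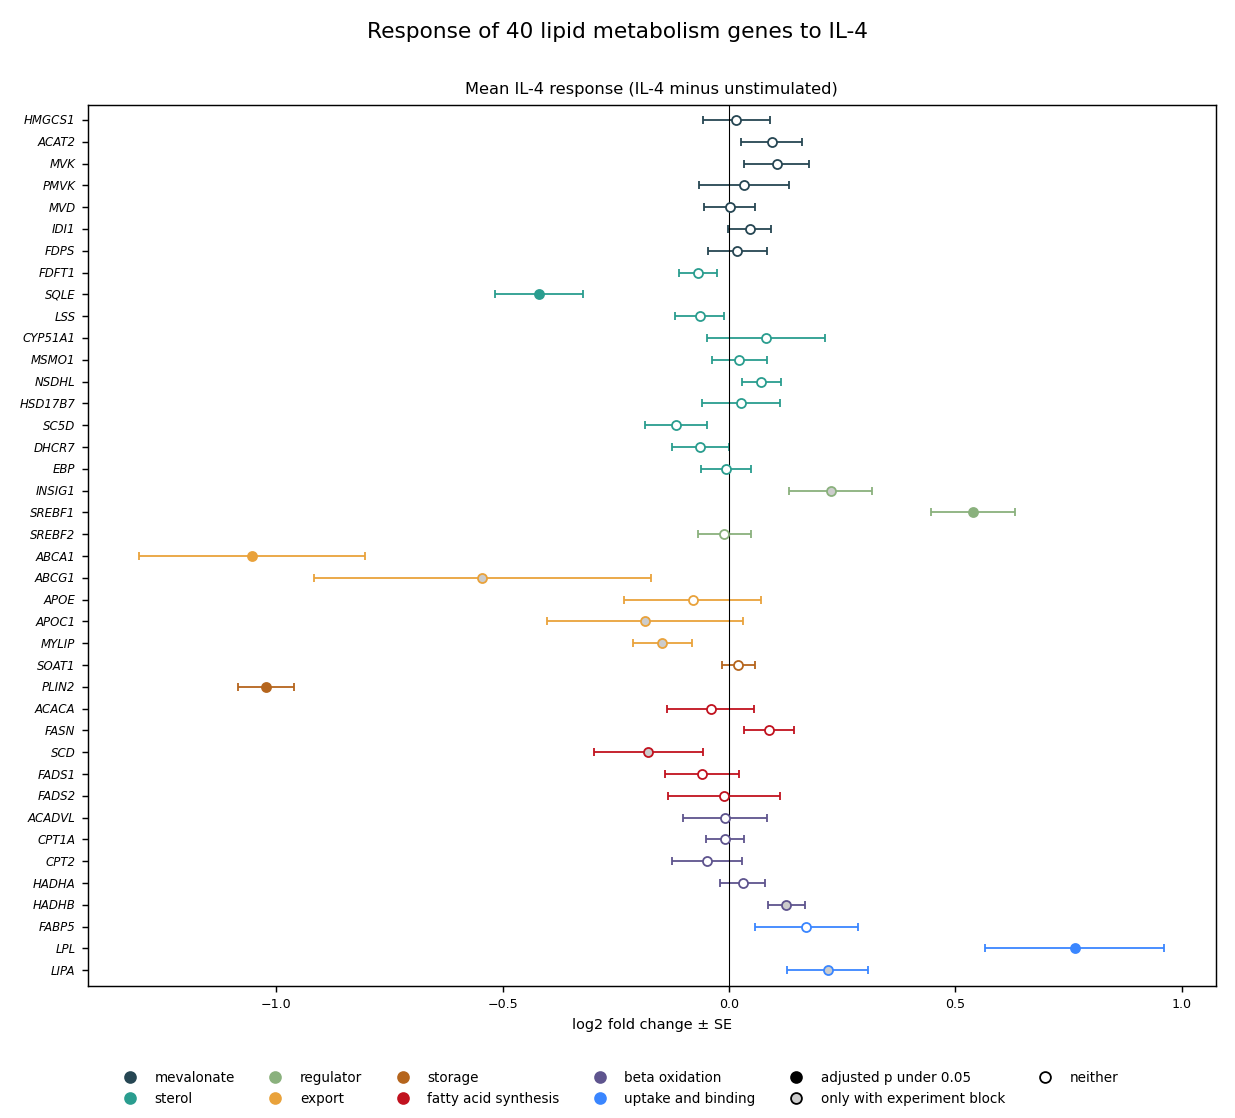
Log2 fold change with IL-4 over unstimulated cells, as the mean over the 3 constructs, for the 40 tested genes in order of role; points are edgeR estimates, bars are ± 1 SE, filled points passed the adjusted threshold and grey ones passed it only with the experiment as a block. PLIN2 (-1.02) and ABCA1 (-1.05) lie farthest to the left and LPL (0.76) and SREBF1 (0.54) farthest to the right, while the 7 mevalonate genes lie between 0.00 and 0.11.

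PLIN2 (ENSG00000147872, 9:19108375 to 19149290, minus strand), which coats lipid droplets, was measured at 40.2, 33.6 and 31.1 CPM in NIC1 cells with IL-4, against 77.5, 63.9 and 61.3 CPM in unstimulated NIC1 cells. In DNMAML cells it was at 29.6, 28.5 and 34.7 CPM with IL-4, against 61.8, 62.96 and 65.2 CPM unstimulated. IRES cells had 31.6, 34.6 and 34.9 CPM with IL-4, against 65.8, 75.5 and 73.3 CPM unstimulated. All 9 libraries with IL-4 lay below all 9 unstimulated ones. The mean log2 change was -1.02 ± 0.0626 (edgeR adjusted p = 7.40e-09). PLIN2 was also called in each construct alone, at -0.95 ± 0.108 in NIC1 (adjusted p = 4.06e-05), -1.03 ± 0.109 in DNMAML (adjusted p = 1.70e-05) and -1.09 ± 0.108 in IRES cells (adjusted p = 9.40e-06).

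ABCA1 (ENSG00000165029, 9:104781002 to 104928237, minus strand), the transporter that loads cholesterol onto lipid-poor apolipoproteins, was at 24.9, 16.96 and 18.7 CPM in NIC1 cells with IL-4, against 43.4, 33.05 and 37.8 CPM in unstimulated NIC1 cells. DNMAML cells gave 24.2, 10.01 and 23.7 CPM with IL-4, against 44.7, 20.4 and 47.9 CPM unstimulated, and IRES cells gave 20.1, 6.99 and 14.7 CPM with IL-4, against 48.3, 19.5 and 34.5 CPM unstimulated. The middle library of each group, experiment 2, was low in both states, so the groups overlapped in DNMAML and IRES cells and were separate in NIC1 cells. Within an experiment and construct the level was lower with IL-4 in 9 of 9 pairs, with log2 changes of -1.46 to -0.80. The mean change was -1.05 ± 0.25 (adjusted p = 0.0122, with the experiment as a block 3.17e-05). It was called in no construct alone without the block, and with the block it was called in NIC1 (adjusted p = 0.0141), DNMAML (0.0106) and IRES cells (0.00202). The blocked NIC1 call was lost without NIC1 with IL-4 replicate 1 or 3, and the DNMAML call without DNMAML with IL-4 replicate 1 or DNMAML unstimulated replicate 3, while the IRES call held in 6 of 6 such fits.

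The second exporter, ABCG1, which passes cholesterol to HDL, was less abundant, at 3.28, 1.10 and 2.53 CPM in NIC1 cells with IL-4, against 4.18, 1.27 and 4.24 CPM in unstimulated NIC1 cells. In DNMAML cells the values were 7.08, 2.09 and 6.93 CPM with IL-4, against 11.3, 2.93 and 11.1 CPM unstimulated, and in IRES cells they were 5.06, 1.88 and 3.94 CPM with IL-4, against 7.84, 2.16 and 5.61 CPM unstimulated. Groups overlapped in all 3 constructs, and ABCG1 was lower with IL-4 in 9 of 9 pairs within an experiment (-0.71 to -0.19). The mean log2 change of -0.54 ± 0.373 did not pass (adjusted p = 0.506), but passed with the experiment as a block (-0.54 ± 0.0985, adjusted p = 0.000264).

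Of the other genes listed under export, APOC1 was lower in 9 of 9 pairs (-0.28 to -0.11). It passed only with the block, at -0.19 ± 0.0512 (adjusted p = 0.011, without the block 0.761). MYLIP, a ubiquitin ligase that marks lipoprotein receptors for breakdown, also passed only with the block, at -0.14 ± 0.0403 (blocked adjusted p = 0.0114, without the block 0.209). APOE was not called, at -0.08 ± 0.152 (adjusted p = 0.882, with the block 0.2), though it too was lower in 9 of 9 pairs (-0.25 to -0.004). Pairs all in 1 direction were thus not confined to called genes. All 5 genes listed under export had negative log2 changes, from -1.05 in ABCA1 to -0.08 in APOE, but without the block only ABCA1 was called. Over all tested genes, 46.3% had a mean change above 0.

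SREBF1 (ENSG00000072310, 17:17810399 to 17837002, minus strand), which encodes the factor that drives fatty acid synthesis genes, was measured at 122, 102 and 128 CPM in NIC1 cells with IL-4, against 71.5, 70.1 and 81.9 CPM in unstimulated NIC1 cells. DNMAML cells had 158, 115 and 140.0 CPM with IL-4, against 114, 85.2 and 110.4 CPM unstimulated, and IRES cells had 151, 102 and 136 CPM with IL-4, against 99.4, 73.7 and 92.9 CPM unstimulated. In each construct the 3 libraries with IL-4 lay above the 3 unstimulated ones, narrowly so in DNMAML and IRES cells. The mean log2 change was 0.54 ± 0.0932 (adjusted p = 0.000858). SREBF1 was also called in NIC1 cells alone, at 0.66 ± 0.162 (adjusted p = 0.037), a call that was lost when any NIC1 library other than NIC1 with IL-4 replicate 2 was left out (adjusted p up to 0.168). With the block it was called in NIC1, DNMAML and IRES cells (adjusted p = 1.16e-06, 0.000264 and 1.06e-05), and each of these calls held in 6 of 6 such fits. The microRNA gene MIR33B overlaps it on its own strand and RAI1 on the other, and the strand setting of the counting is not given.

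SREBF2, at -0.01 ± 0.0591 (adjusted p = 0.971), was not called, and its 18 libraries ranged from 311 to 397 CPM. INSIG1, the protein that retains both factors in the endoplasmic reticulum, was higher with IL-4 in 9 of 9 pairs within an experiment (0.10 to 0.38). Its mean change of 0.23 ± 0.0917 did not pass without the block (adjusted p = 0.166) and passed with it (0.22 ± 0.063, adjusted p = 0.0205).

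Among the enzymes of sterol synthesis, SQLE (ENSG00000104549, 8:124998497 to 125022283, plus strand), which makes squalene epoxide and is a control point of the pathway, was at 282, 362 and 271 CPM in NIC1 cells with IL-4, against 399, 425 and 388 CPM in unstimulated NIC1 cells. In DNMAML cells it was at 221, 323 and 258 CPM with IL-4, against 305, 407 and 350.2 CPM unstimulated. IRES cells had 218, 331 and 267 CPM with IL-4, against 323, 417 and 375 CPM unstimulated. Experiment 2 was the highest in every group, so groups overlapped in DNMAML and IRES cells, and SQLE was lower with IL-4 in 9 of 9 pairs (-0.57 to -0.23). The mean log2 change was -0.42 ± 0.0969 (adjusted p = 0.00863), and no construct alone passed without the block, while all 3 passed with it (adjusted p = 0.000453 in NIC1, 0.000542 in DNMAML and 0.000151 in IRES cells).

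The neighbours of SQLE in the pathway were not called. FDFT1, the squalene synthase just before it, was at -0.07 ± 0.0415 (adjusted p = 0.423), and LSS, the lanosterol synthase just after it, at -0.06 ± 0.0536 (adjusted p = 0.611). The other 7 sterol enzymes, CYP51A1, MSMO1, NSDHL, HSD17B7, SC5D, DHCR7 and EBP, had mean log2 changes between -0.12 (SC5D) and 0.08 (CYP51A1), and none was called. The high value of CYP51A1 in DNMAML cells with IL-4, 13.9 CPM in replicate 3 against 8.92 and 7.84 CPM in replicates 1 and 2, came from the library with the most genes detected. That library also had the highest share of reads in no gene, 30.9%. CYP51A1 overlaps AC000120.2 and AC000120.3 on its own strand, and the cause of the high value was not tested.

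None of the 7 mevalonate genes (HMGCS1, ACAT2, MVK, PMVK, MVD, IDI1 and FDPS) passed without or with the block. Their mean log2 changes with IL-4 lay between 0.00 in MVD and 0.11 in MVK, with a median of 0.03. The largest belonged to MVK, the mevalonate kinase, at 14.98, 17.7 and 15.8 CPM in NIC1 cells with IL-4, against 14.9, 18.6 and 15.5 CPM unstimulated. It was at 17.3, 14.6 and 19.3 against 16.1, 15.4 and 16.5 CPM in DNMAML cells with IL-4 and unstimulated, and at 19.2, 18.9 and 18.1 against 17.2, 17.1 and 13.3 CPM in IRES cells with IL-4 and unstimulated. These groups overlapped except in IRES cells (mean log2 change 0.11 ± 0.0718, adjusted p = 0.504). HMGCS1, the synthase at the head of the pathway, was at 0.02 ± 0.074, and FDPS, which makes farnesyl diphosphate, at 0.02 ± 0.0651.

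LPL (ENSG00000175445, 8:19901717 to 19967259, plus strand), the lipase that releases fatty acids from lipoproteins, had 12.4, 7.34 and 12.3 CPM in NIC1 cells with IL-4, against 8.14, 3.82 and 8.72 CPM in unstimulated NIC1 cells. DNMAML cells had 5.24, 6.21 and 4.56 CPM with IL-4, against 3.40, 2.12 and 4.14 CPM unstimulated, and IRES cells 7.22, 4.36 and 7.002 CPM with IL-4, against 4.21, 2.02 and 3.51 CPM unstimulated. The groups were separate in DNMAML and IRES cells and overlapped in NIC1 cells, where experiment 2 was low in both states. The mean log2 change was 0.76 ± 0.198 (adjusted p = 0.0188), and LPL was higher with IL-4 in 9 of 9 pairs (0.13 to 1.49). In single constructs it passed only with the block (adjusted p = 0.0385 in NIC1, 0.0438 in DNMAML and 0.00954 in IRES cells). Each of these 3 calls was lost when any of 3 to 5 of the 6 libraries was left out. LPL rests on 28 to 186 counts per library.

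LIPA, the lysosomal lipase that frees cholesterol and fatty acids from taken-up lipoproteins, was higher in 9 of 9 pairs (0.12 to 0.32) and passed only with the block (mean log2 change 0.22 ± 0.0632, adjusted p = 0.0205, without it 0.167). That blocked call was lost without NIC1 unstimulated replicate 2, DNMAML with IL-4 replicate 3 or IRES unstimulated replicate 1 (adjusted p up to 0.0541), and several IFIT genes overlap it on the other strand. FABP5, a fatty acid binding protein, was not called, at 0.17 ± 0.114 (adjusted p = 0.489).

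In fatty acid synthesis, SCD, which makes monounsaturated fatty acids, was lower with IL-4 in 9 of 9 pairs (-0.38 to -0.09). Its mean log2 change of -0.18 ± 0.119 did not pass without the block (adjusted p = 0.492) and passed with it (adjusted p = 0.00106). ACACA (acetyl-CoA carboxylase), FASN (fatty acid synthase), FADS1 and FADS2 (fatty acid desaturases) had mean log2 changes between -0.06 and 0.09, and none was called in the mean response with or without the block.

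Of the 5 beta oxidation genes, HADHB, a subunit of the mitochondrial trifunctional protein, was higher with IL-4 in 9 of 9 pairs (0.04 to 0.27). HADHB was measured at 99.995, 85.6 and 93.1 CPM in NIC1 cells with IL-4, against 97.1, 82.7 and 87.4 CPM unstimulated. It was at 106, 103 and 109.7 against 95.3, 92.5 and 91.3 CPM in DNMAML cells with IL-4 and unstimulated and at 104, 96.1 and 98.7 against 97.1, 90.3 and 86.8 CPM in IRES cells with IL-4 and unstimulated, and the groups were separate in DNMAML cells. Its mean log2 change of 0.13 ± 0.0408 (adjusted p = 0.0632) passed with the block (adjusted p = 0.00433). HADHA, the other subunit, which overlaps HADHB on the opposite strand, was at 0.03 ± 0.05, while ACADVL and the carnitine transferases CPT1A and CPT2, which bring fatty acids into mitochondria, lay between -0.05 and -0.01. SOAT1, which esterifies cholesterol for storage, was at 0.02 ± 0.0361 (adjusted p = 0.868).

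**Figure D2:**
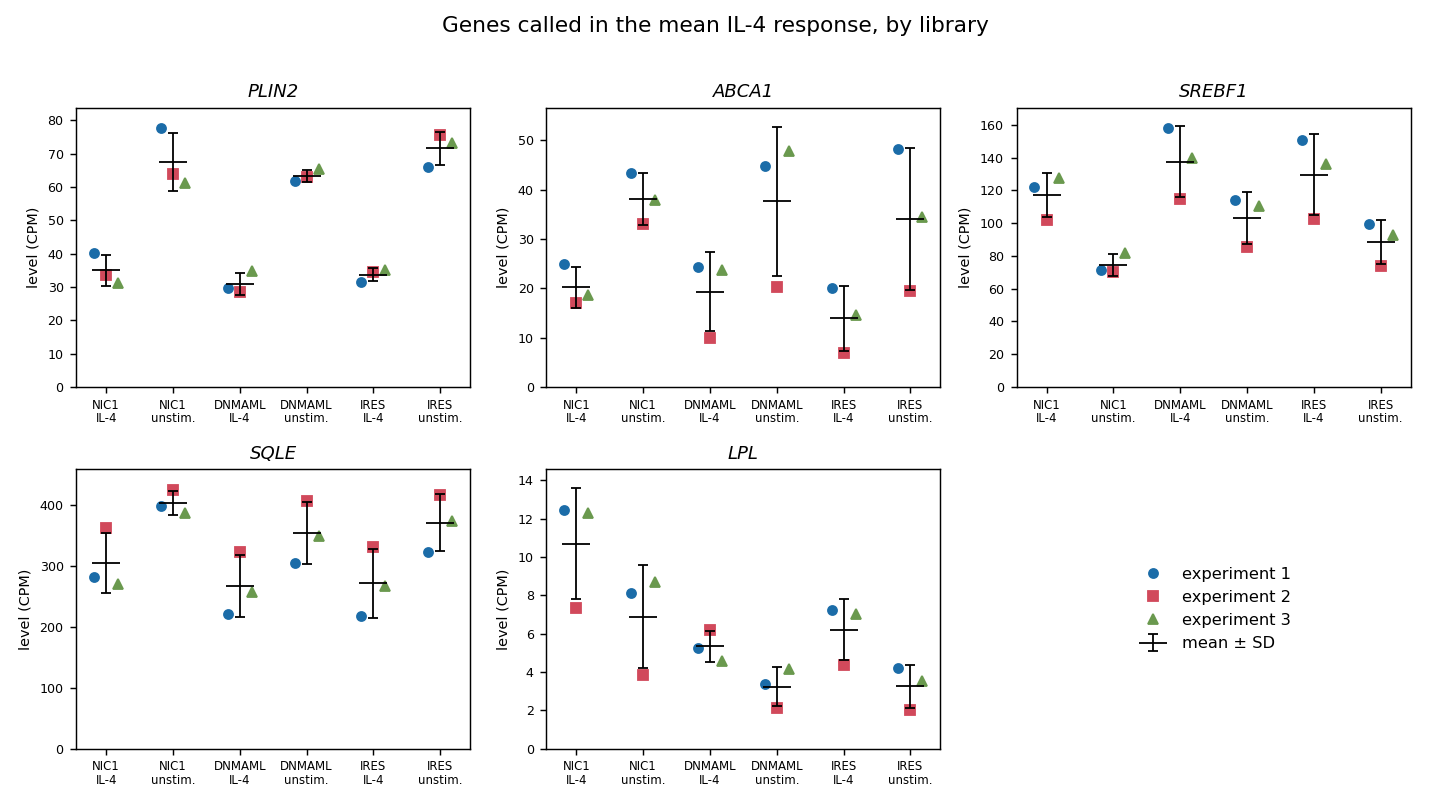
Levels in CPM of the 5 genes called in the mean IL-4 response, in every library; each panel is a gene, the horizontal axis gives the 6 groups, symbols give the experiment number and the bar is the mean ± SD of 3 libraries. PLIN2 with IL-4 lies between 28.5 and 40.2 CPM and unstimulated between 61.3 and 77.5 CPM, while in ABCA1 and SQLE the libraries of experiment 2 lie apart in both states.

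With IL-4 tested in each construct alone, 2 members were called in NIC1 cells (SREBF1 and PLIN2, with 3.05% of all genes called), 1 in DNMAML cells (PLIN2, 3.28%) and 1 in IRES cells (PLIN2, 2.93%). With the experiment as a block, 6 members were called in NIC1 cells (8.8% of all genes), 8 in DNMAML cells (9.95%), 5 in IRES cells (9.04%) and 12 in the mean response, 5 higher and 7 lower (21.8%). SQLE, SREBF1, ABCA1, PLIN2 and LPL made up the 5 in IRES cells and were among those of NIC1 and DNMAML cells too. FASN was the sixth in NIC1 cells, at 0.22 ± 0.0627 (blocked adjusted p = 0.0249), a call lost when any of 4 of the 6 NIC1 libraries was left out. ABCG1, SCD and HADHB made up the rest in DNMAML cells (adjusted p = 0.0058, 0.0438 and 0.0201). These 3 calls were lost when any of 2 (ABCG1), 5 (SCD) or 4 (HADHB) of the 6 DNMAML libraries was left out. The difference in IL-4 response between constructs was tested directly. Without a block, in edgeR 0 of the 40 members and 0% of all genes passed for NIC1 against DNMAML, NIC1 against IRES and DNMAML against IRES, with 0 members at an unadjusted p under 0.05 in each and 0 calls by DESeq2. Over all genes, 214, 121 and 98 had an unadjusted p under 0.05 in these 3 tests. With a block per construct and number, edgeR called 13 of the 15037 genes for NIC1 against DNMAML, none of them a member, and 0 genes in the other 2 tests, where 811 (NIC1 against IRES) and 474 (DNMAML against IRES) had an unadjusted p under 0.05.

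Around these members, 102 further genes of the same pathways were examined, of which 89 were tested, and 5 were higher and 14 lower in the mean IL-4 response (median log2 change -0.05). Over all tested genes 848 were higher and 689 lower in that mean (10.2% called). In single constructs the counts for these 89 genes were 4 higher and 1 lower in NIC1, 4 and 4 in DNMAML, and 4 and 1 in IRES cells. In cholesterol handling, 2 of 15 tested genes rose and 1 fell. The largest call was CH25H, which makes 25-hydroxycholesterol, at 10.97, 9.77 and 10.7 CPM in NIC1 cells with IL-4 against 1.52, 0.717 and 1.20 CPM unstimulated (mean log2 change 3.00 ± 0.225, adjusted p = 9.92e-08). In lipid droplets and lipases, 1 of 15 rose and 2 fell, and MGLL, the monoacylglycerol lipase, had the largest change at 1.84 ± 0.115 (adjusted p = 1.81e-08). In sterol synthesis and uptake 2 of 13 fell, with STARD4, a sterol carrier, at -0.56 ± 0.0861 (adjusted p = 0.000289). In fatty acid synthesis and elongation 1 of 23 rose and 4 fell, with LPIN1, a phosphatidate phosphatase, at -0.51 ± 0.0774 (adjusted p = 0.000222). In fatty acid oxidation 1 of 23 rose and 5 fell, with PDK4, a kinase that slows pyruvate oxidation, at -1.12 ± 0.293 (adjusted p = 0.0198).

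Markers of adipocytes, which share lipid genes with macrophages, had a summed level of 34.1 to 43.6 CPM in NIC1 with IL-4 and 11.2 to 16.3 CPM in NIC1 unstimulated. It was 24.4 to 31.1 CPM in DNMAML with IL-4 and 11.6 to 18.1 CPM in DNMAML unstimulated, and 25.9 to 39.2 CPM in IRES with IL-4 and 10.5 to 17.7 CPM in IRES unstimulated. Of the 6 markers 2 were tested, and only PPARG, a nuclear receptor that macrophages express too, was called (mean log2 change 1.35 ± 0.154, adjusted p = 1.70e-05). The part of these markers in the IL-4 responses was not tested. The defining markers ADIPOQ, LEP and PLIN1 stayed at or under 0.204 CPM in all 18 libraries.

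Between the constructs, the comparison of NIC1 with DNMAML sets the activating against the blocking Notch construct, and each was also set against the empty vector. Without the block, 1 of 40 members passed in unstimulated NIC1 against DNMAML cells, DHCR7 (1.65% of all genes called), and 0 passed with IL-4 (1.44%). NIC1 against IRES gave 0 calls unstimulated (0.233% of all genes) and 0 with IL-4 (0.2%), as did DNMAML against IRES (0% of all genes in both states). Over all genes, the DNMAML comparison with IRES had 371 unstimulated and 357 with IL-4 at an unadjusted p under 0.05, and DESeq2 called 2 and 1. Among the members, at an unadjusted p under 0.05 there were 5 members with IL-4 in NIC1 against DNMAML, 5 unstimulated and 1 with IL-4 in NIC1 against IRES, and 0 unstimulated and 1 with IL-4 in DNMAML against IRES. Over all 15037 genes, 1767 had such a p with IL-4 in NIC1 against DNMAML, and 1071 unstimulated and 895 with IL-4 in NIC1 against IRES. DESeq2 called 0 members in each of these 5 comparisons. With the experiment as a block, the counts were 11 members unstimulated (2 higher and 9 lower in NIC1, 13.8% of all genes called) and 9 with IL-4 (1 higher, 8 lower, 12.6%) in NIC1 against DNMAML. They were 7 unstimulated (1 higher, 6 lower, 5.37%) and 5 with IL-4 (1 higher, 4 lower, 5.44%) in NIC1 against IRES. DNMAML against IRES stayed at 0 in both states (0.146% and 0.0931% of all genes, unstimulated and with IL-4). The 2 libraries that share a construct and a number may stem from a single culture, in which case the blocked p-values of construct comparisons would be too low.

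**Figure D3:**
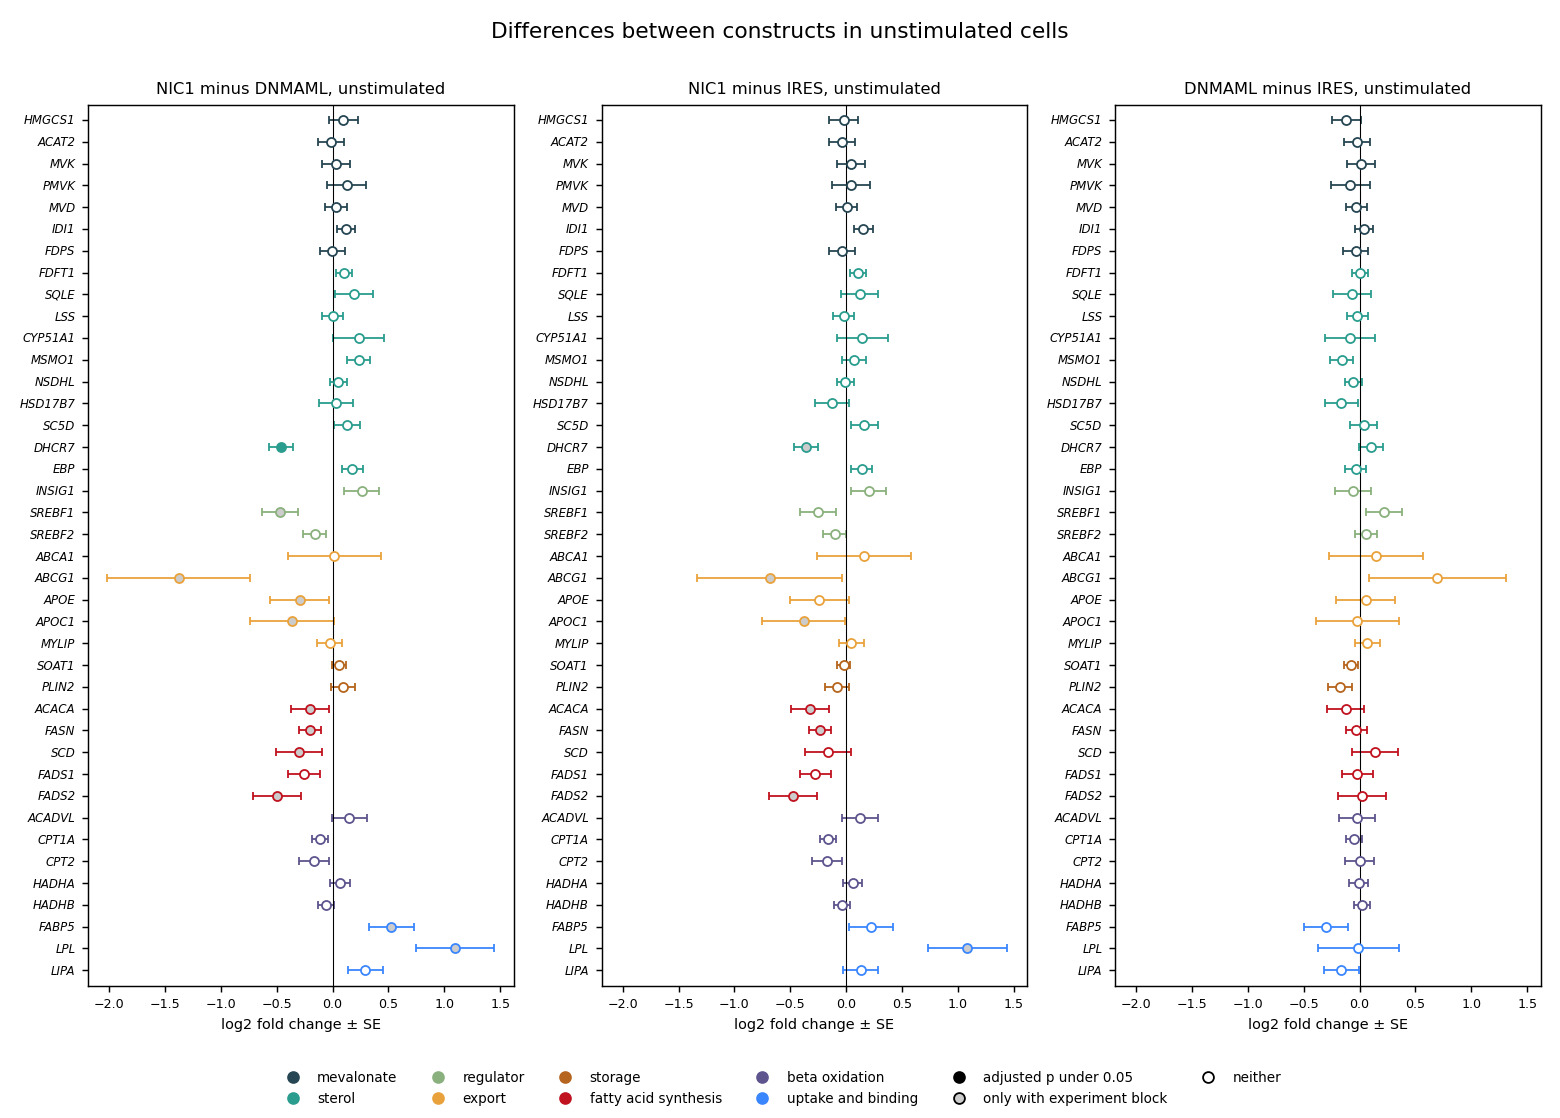
Log2 fold change between constructs in unstimulated cells, NIC1 over DNMAML, NIC1 over IRES and DNMAML over IRES, for the 40 tested genes in order of role; points are edgeR estimates, bars are ± 1 SE, filled points passed the adjusted threshold and grey ones passed it only with the experiment as a block. ABCG1 lies at -1.38, -0.68 and 0.69 and LPL at 1.10, 1.09 and -0.01 in the 3 panels.

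DHCR7 (ENSG00000172893, 11:71428193 to 71452868, minus strand), the reductase that makes cholesterol at the end of synthesis, was at 40.9, 37.9 and 36.2 CPM in unstimulated NIC1 cells, 56.4, 47.8 and 54.4 CPM in DNMAML cells and 52.7, 44.3 and 50.5 CPM in IRES cells. Every NIC1 library lay below every library of the other constructs. Its log2 change was -0.46 ± 0.108 against DNMAML (adjusted p = 0.0435, blocked 0.000309) and -0.36 ± 0.108 against IRES (adjusted p = 0.329, blocked 0.00805). The unblocked call against DNMAML was lost when any of the 6 libraries other than DNMAML unstimulated replicate 2 was left out (adjusted p up to 0.188), while the blocked call held in 6 of 6 such fits. The blocked call against IRES was lost without IRES unstimulated replicate 3 (adjusted p = 0.0541). With IL-4, DHCR7 was at 41.9, 40.2 and 38.6 CPM in NIC1, 54.2, 46.8 and 41.6 CPM in DNMAML and 49.1, 39.6 and 48.3 CPM in IRES cells, and the groups overlapped. There the blocked call against DNMAML (-0.24 ± 0.0774, adjusted p = 0.0499) was lost when any of 4 of the 6 libraries was left out. The other 9 sterol enzymes were not called in any construct comparison without or with the block. Among them, SQLE was higher in NIC1 than in DNMAML cells in 6 of 6 pairs within an experiment (0.06 to 0.39). It was also higher than in IRES cells in 6 of 6 (0.02 to 0.37).

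ABCG1 (ENSG00000160179, 21:42199689 to 42297244, plus strand) had the largest log2 change of the 40 members in unstimulated NIC1 against DNMAML cells. In unstimulated cells it was at 4.18, 1.27 and 4.24 CPM in NIC1, 11.3, 2.93 and 11.1 CPM in DNMAML and 7.84, 2.16 and 5.61 CPM in IRES cells, and its values with IL-4 are those of the IL-4 comparison. Experiment 2 was low in every group, so that the groups overlapped. Within an experiment ABCG1 was lower in NIC1 than in DNMAML cells in 6 of 6 pairs (-1.40 to -0.85) and lower than in IRES cells in 6 of 6 (-0.88 to -0.39). Against DNMAML, none of this passed without the block (-1.38 ± 0.639 unstimulated, adjusted p = 0.364). With it, the change was -1.36 ± 0.162 unstimulated (adjusted p = 6.16e-06) and -1.21 ± 0.177 after IL-4 (adjusted p = 6.50e-05), and both calls held without any 1 library. Against IRES the blocked changes were -0.69 ± 0.173 unstimulated (adjusted p = 0.0199, lost without NIC1 or IRES unstimulated replicate 1) and -0.66 ± 0.188 after IL-4 (adjusted p = 0.0435, lost when any of 5 of the 6 libraries was left out). Between DNMAML and IRES cells the difference of 0.69 ± 0.614 unstimulated passed in neither fit (blocked adjusted p = 0.0675), with DNMAML higher in 6 of 6 pairs (0.15 to 0.96). ABCA1, which fell with IL-4 as described, was not called in any construct comparison, at 0.02 ± 0.421 in unstimulated NIC1 against DNMAML cells.

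The apolipoprotein genes APOE and APOC1 lie side by side on chromosome 19 and overlap a common transcript, AC011481.3. APOC1 was at 127, 64.2 and 97.3 CPM in NIC1, 139, 76.1 and 156 CPM in DNMAML and 159, 86.1 and 131 CPM in IRES cells unstimulated. With IL-4 it was at 109, 54.2 and 88.2 CPM in NIC1, 120.1, 70.7 and 129.6 CPM in DNMAML and 146, 71.1 and 122 CPM in IRES cells. Groups overlapped in both states and experiment 2 was low throughout. Within an experiment APOC1 was lower in NIC1 than in IRES cells in 6 of 6 pairs (-0.46 to -0.32) and than in DNMAML cells in 6 of 6 (-0.68 to -0.13). It passed only with the block, at -0.36 ± 0.0889 against DNMAML (adjusted p = 0.0111) and -0.39 ± 0.0889 against IRES (adjusted p = 0.0133) in unstimulated cells. In cells given IL-4 it passed with the block at -0.36 ± 0.0896 against DNMAML (adjusted p = 0.0111) and -0.43 ± 0.0894 against IRES (adjusted p = 0.0072). Each of these 4 calls was lost without at least 1 library, such as NIC1 unstimulated replicate 3 in both unstimulated comparisons, DNMAML or NIC1 with IL-4 replicate 3 in the comparison with DNMAML, and IRES with IL-4 replicate 1 in that with IRES.

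APOE was at 1685, 1109.5 and 1636 CPM in NIC1, 2050.0, 1307 and 2075 CPM in DNMAML and 2041, 1311 and 1878 CPM in IRES cells unstimulated. With IL-4 it was at 1670.3, 1089 and 1371 CPM in NIC1, 1798, 1225 and 2069 CPM in DNMAML and 1999, 1204 and 1862 CPM in IRES cells. Again the groups overlapped and NIC1 was the lowest construct in each experiment and state. The blocked change was -0.29 ± 0.0724 against DNMAML unstimulated (adjusted p = 0.00996, 0.0553 without DNMAML unstimulated replicate 3). In cells given IL-4 it was -0.29 ± 0.0724 against DNMAML (adjusted p = 0.00953, lost without DNMAML or NIC1 with IL-4 replicate 3) and -0.28 ± 0.0724 against IRES (adjusted p = 0.0246, lost when any of 3 of the 6 libraries was left out). Without the block none passed (adjusted p = 0.706, 0.75 and 1).

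Genes of fatty acid synthesis had, in unstimulated NIC1 cells, negative log2 changes in 5 of 5 against DNMAML (median -0.257) and in 5 of 5 against IRES (median -0.276), where the median over all tested genes was -0.00114 and -0.000434. With IL-4, 4 of 5 were negative against DNMAML (median -0.124) and 5 of 5 against IRES (median -0.168). FADS2, the desaturase that starts the synthesis of long polyunsaturated fatty acids, showed the largest change. It was at 46.4, 35.4 and 53.5 CPM in NIC1, 72.7, 54.4 and 63.7 CPM in DNMAML and 72.9, 46.9 and 68.4 CPM in IRES cells unstimulated. With IL-4 it was at 47.4, 36.5 and 51.3 CPM in NIC1, 76.1, 55.01 and 61.2 CPM in DNMAML and 72.2, 44.7 and 65.5 CPM in IRES cells. NIC1 and DNMAML libraries did not overlap in either state. With the block FADS2 changed by -0.50 ± 0.0873 against DNMAML unstimulated (adjusted p = 0.000446, without the block 0.325) and -0.51 ± 0.0866 after IL-4 (adjusted p = 0.000336, without the block 0.354). It changed by -0.47 ± 0.0875 against IRES unstimulated (adjusted p = 0.00226) and -0.42 ± 0.0869 after IL-4 (adjusted p = 0.00462). Of these 4 blocked calls, 3 held without any 1 library and the last was lost without IRES with IL-4 replicate 1 (adjusted p = 0.0577). FADS2 overlaps FEN1 on its own strand and FADS1 on the other.

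SCD was at 538, 416 and 531 CPM in unstimulated NIC1, 669, 478 and 684 CPM in DNMAML and 661, 412 and 593 CPM in IRES cells. It was lower in NIC1 than in DNMAML cells in 6 of 6 pairs within an experiment. Given IL-4, the cells had 491, 362 and 473 CPM in NIC1, 619, 438 and 527 CPM in DNMAML and 599, 389 and 502 CPM in IRES cells. The groups overlapped, and only the blocked fit against DNMAML called SCD, at -0.29 ± 0.064 in unstimulated cells (adjusted p = 0.00331) and -0.26 ± 0.064 after IL-4 (adjusted p = 0.00975, lost when any of 3 of the 6 libraries was left out). ACACA, the enzyme that commits acetyl-CoA to fatty acid synthesis, was at 75.3, 57.2 and 72.1 CPM in unstimulated NIC1, 82.1, 68.3 and 84.6 CPM in DNMAML and 100.1, 66.9 and 89.1 CPM in IRES cells. FASN was at 221, 211 and 249 CPM in unstimulated NIC1, 265, 253 and 267 CPM in DNMAML and 278, 253 and 271 CPM in IRES cells, and its NIC1 libraries lay below all others. Both were called only unstimulated and with the block, ACACA at -0.32 ± 0.0667 against IRES (adjusted p = 0.00569) and -0.20 ± 0.0668 against DNMAML (adjusted p = 0.0459). FASN was at -0.23 ± 0.0628 against IRES (adjusted p = 0.03) and -0.20 ± 0.0627 against DNMAML (adjusted p = 0.0335). ACACA against IRES was lost without 1 library, IRES unstimulated replicate 1, and the other 3 calls were lost when any of 4 or 5 of the 6 libraries was left out. FADS1 was not called.

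SREBF1, which rose with IL-4, was lower in NIC1 than in DNMAML cells in 6 of 6 pairs within an experiment (-0.68 to -0.13). Unstimulated, the 3 NIC1 libraries lay below the 3 DNMAML ones and the change was -0.46 ± 0.0724 with the block (adjusted p = 0.000149, without it 0.192), held without any 1 library. With IL-4 it was -0.23 ± 0.0696 (blocked adjusted p = 0.0358), lost when any of 5 of the 6 libraries was left out. Against IRES it was not called in either fit (blocked adjusted p = 0.0577 unstimulated and 0.35 with IL-4). SREBF2 and INSIG1 were not called between constructs. SREBF2 was still lower in NIC1 than in DNMAML cells in 6 of 6 pairs (-0.32 to -0.02). The 3 unstimulated NIC1 libraries of INSIG1 were at 136, 128 and 127 CPM. All 3 lay above those of DNMAML (90.1, 123 and 114 CPM) and IRES (102, 121 and 117 CPM). HADHB was lower in NIC1 than in DNMAML cells with IL-4 with the block only (-0.20 ± 0.0536, adjusted p = 0.016, lost without NIC1 with IL-4 replicate 2 or DNMAML with IL-4 replicate 3).

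**Figure D4:**
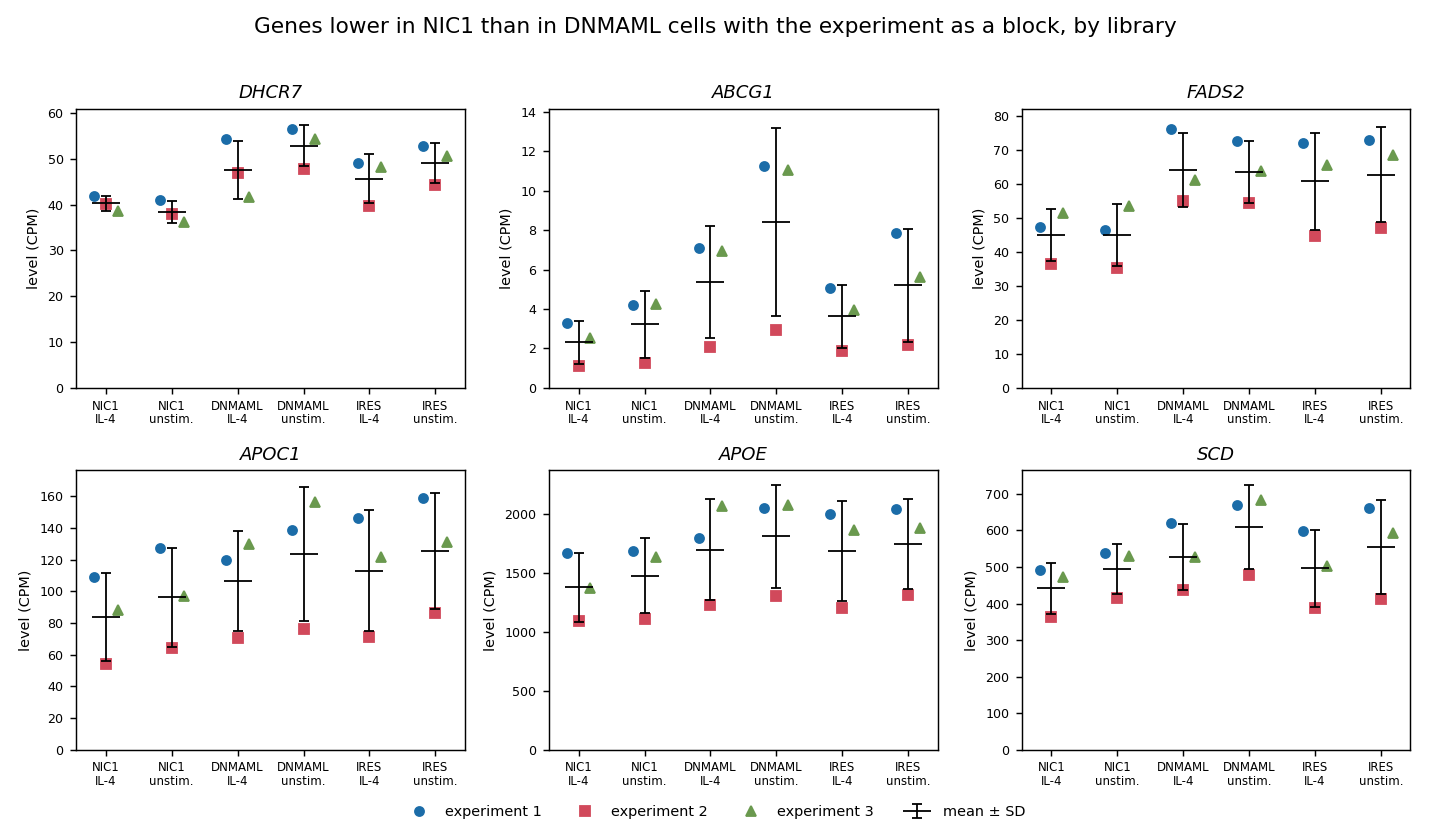
Levels in CPM of 6 genes that were lower in NIC1 than in DNMAML cells with the experiment as a block, in every library; each panel is a gene, the horizontal axis gives the 6 groups, symbols give the experiment number and the bar is the mean ± SD of 3 libraries. Unstimulated DHCR7 lies between 36.2 and 40.9 CPM in NIC1 cells and between 47.8 and 56.4 CPM in DNMAML cells, and experiment 2 is the lowest library of every group in ABCG1, FADS2, APOC1, APOE and SCD.

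Of the genes of uptake and binding, LPL, whose values by library stand with the IL-4 response, was higher in NIC1 than in DNMAML cells in 6 of 6 pairs (0.24 to 1.40) and higher than in IRES cells in 6 of 6 (0.73 to 1.28). With IL-4, every NIC1 library lay above every DNMAML and IRES library, while unstimulated the groups overlapped through experiment 2. The log2 change against DNMAML was 1.10 ± 0.349 in unstimulated cells (adjusted p = 0.149, blocked 0.00244). In cells given IL-4 it was 1.00 ± 0.331 (adjusted p = 0.195, blocked 0.00169). Against IRES it was 1.09 ± 0.35 unstimulated (edgeR adjusted p = 0.377, with the block 0.00667) and 0.78 ± 0.328 with IL-4 (edgeR adjusted p = 0.714, with the block 0.0174). The blocked calls held without any 1 library except the last, which was lost when any of 5 of the 6 was left out. The difference in its IL-4 response between NIC1 and IRES cells was not called (log2 -0.30).

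FABP5 was at 19.7, 15.4 and 17.4 CPM in NIC1, 8.73, 15.4 and 12.4 CPM in DNMAML and 12.4, 17.7 and 14.9 CPM in IRES cells unstimulated. It was called only with the block against DNMAML unstimulated (0.55 ± 0.17, adjusted p = 0.0404), a call lost when any of 4 of the 6 libraries was left out. FABP4, which was too low to test, had 15, 2 and 14 counts in NIC1 cells with IL-4 and 8, 4 and 5 counts in unstimulated NIC1 cells. DNMAML cells had 1, 0 and 0 counts with IL-4 and 0 counts in all 3 unstimulated libraries, and IRES cells had 3, 0 and 4 counts with IL-4 and 4, 1 and 0 unstimulated. NIC1 cells held 31 of the 61 counts with IL-4 and 17 unstimulated. LIPA was not called between constructs.

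The members not named in this comparison, among them the 7 mevalonate genes, SOAT1, PLIN2 and the oxidation genes other than HADHB, were not called between constructs in either fit. SOAT1 was nonetheless higher in NIC1 than in DNMAML cells in 6 of 6 pairs (0.01 to 0.13), so such pairs also occurred in genes not called. Of the 89 tested pathway genes outside the list, 1 was higher and 1 lower in unstimulated NIC1 than in DNMAML cells, 1 was higher with IL-4, and 0 were called against IRES for either construct.

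Markers of other cell types were examined beside these differences. The summed level of 8 T cell markers was 113 to 137 CPM in NIC1 with IL-4 and 124 to 158 CPM in NIC1 unstimulated. It was 75.3 to 94.0 CPM in DNMAML with IL-4 and 85.2 to 95.8 CPM in DNMAML unstimulated, and 77.6 to 96.1 CPM in IRES with IL-4 and 87.2 to 104.6 CPM in IRES unstimulated. Of the 3 that were tested, 2 (CD3D and CD3G) were called higher in unstimulated NIC1 than in DNMAML cells, and the third was not called. CD3E, CD2, CD5, CD8A and CD247 stayed at or under 0.304 CPM in every library. These sums thus rest on the 3 tested markers, whose single shares are not given here, and do not measure T cells. The summed level of 8 hepatocyte markers was 479 to 512 CPM in NIC1 with IL-4, 385 to 460 CPM in DNMAML with IL-4 and 322 to 412 CPM in IRES with IL-4. Unstimulated it was 472 to 561 CPM in NIC1, 425 to 553 CPM in DNMAML and 361 to 421 CPM in IRES, so that NIC1 lay above IRES in both states and above DNMAML with IL-4. SERPINA1, a protease inhibitor that monocytes make too, made up nearly all of this sum and was not called in NIC1 against either construct without the block, while the other 7, ALB among them, stayed at or under 1.505 CPM and FGB had no count. Sums of B cell markers and of epithelial and fibroblast markers overlapped between constructs in each state. Without the block, 1 of 7 tested epithelial and fibroblast markers was lower in NIC1 than in DNMAML cells in each state. Of 10 macrophage and monocyte markers, 1 was higher and 1 lower there unstimulated (1.65% of all genes called), and 1 was lower with IL-4 (1.44%). In the mean IL-4 response, 1 of the 7 and 1 of the 10 were higher (10.2% of all genes called). The part of these markers in the differences of the lipid genes was not tested.

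In most of these genes the experiment went with more of the variation than the construct or IL-4. Of the sum of squares of log2 CPM over the 18 libraries, the experiment took a median share of 38.6% over the 40 members, against 29.3% over all 15037 tested genes. The construct took 14.8% against 11.2% over all genes, and IL-4 took 4.73% against 5.07%. The experiment had the largest of the 3 shares in 27 members, the construct in 7 (MSMO1, DHCR7, SOAT1, FADS2, CPT1A, FABP5 and LPL) and IL-4 in 6 (MVK, SQLE, SREBF1, ABCA1, PLIN2 and HADHB). For PLIN2 the share of IL-4 was 93.8%, for DHCR7 that of the construct was 58.2%, and for APOE that of the experiment was 77.8%. The largest of the 3 shares could still be small. In MVK, IL-4 took 12.8% and the rest 78.5%, and in CPT1A the construct took 18.1% and the rest 68.4%. The experiment and the construct have more levels than IL-4, which tends to raise their shares.

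Experiment 2 gave the lowest mean in 30 of the 40 members and the highest in 9. APOE averaged 1874 CPM in experiment 1, 1208 in experiment 2 and 1815 in experiment 3, and ABCG1 6.45, 1.91 and 5.72 CPM in the same order. In the other direction, SQLE averaged 291, 378 and 318 CPM, ACADVL 515, 662 and 543 CPM and INSIG1 114, 141 and 127 CPM. PLIN2 was nearly level, at 51.1, 49.8 and 50.1 CPM. The numbers mark experiments, and the labels do not say what differed between them.

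**Figure D5:**
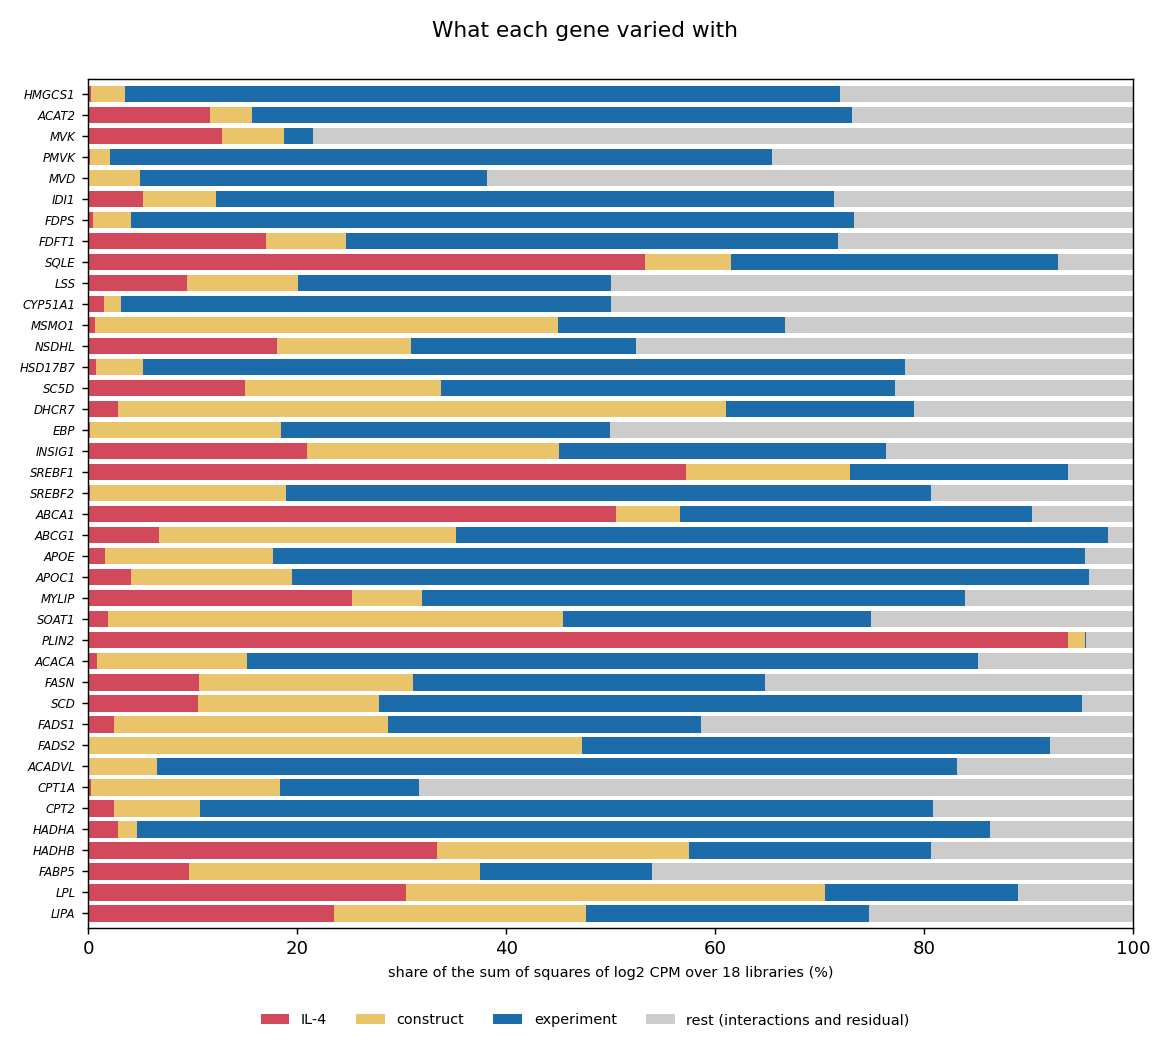
Share in percent of the sum of squares of log2 CPM over the 18 libraries that went with IL-4, the construct, the experiment number and the rest, for the 40 tested genes in order of role. The experiment takes more than IL-4 and the construct in 27 of the 40 genes, and IL-4 takes 93.8% in PLIN2.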

How the data were processed

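RNA of 18 THP-1 samples was sequenced after TruSeq RNA library preparation, and the authors deposited whole-number HTSeq counts per Ensembl gene. Per the submitters' processing notes, FastQC, Trimmomatic, HISAT2, HTSeq and DESeq2 were used with GRCh38.p12, and no version, strand setting or annotation is given in the sources used here. Summary lines that name no gene, 23.8% to 30.9% of reads, were left out. Samples were grouped by construct and IL-4 from the labels. Between libraries of a group, chi-square per degree of freedom was 5.29 or more, so none was counted as a repeat.

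Counts were fitted with edgeR 4.0.16 (R 4.3.3) as quasi-likelihood models of 6 group means over all 18 libraries, after filterByExpr and TMM scaling, with Benjamini-Hochberg adjustment over 15037 genes and a threshold of 0.05. The standard error is the log2 change divided by the root of F. Only the fit without a block was tested on simulated data, which held no shift between experiments. That test covered IL-4 in IRES cells, the mean IL-4 response and the difference in response between NIC1 and IRES cells. The blocked fits were not tested in this way. The titles give the experiment numbers. Deviations from group means correlated at 0.206 to 0.759 between all 45 same-numbered pairs and at -0.654 to 0.354 between the 90 different-numbered ones. Centring on the mean of 3 libraries pushes different-numbered values down. The ranges overlap, and experiments 1 and 3 were not always told apart. NIC1 unstimulated replicate 3 correlated at 0.338 with DNMAML unstimulated replicate 1 and at 0.229 with DNMAML unstimulated replicate 3. A fit with the number as a block is therefore given beside results where it alters a call. Alternatives were RLE scaling, DESeq2 1.42.0, no filter, only the groups compared, a block per construct and number, and leaving out libraries. Log2 CPM for pairs and variance shares used a prior count of 2.

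Gene positions are from GENCODE 29 (GRCh38), which matched all 41 genes, and promoters from RefSeq (GRCh38.p14). The members, lists and tests were chosen with earlier results of these data known. Genes called without the block, called between constructs with it, or with the largest change of their role are given by library, and the others by range or change. Depth was 12410668 to 15099788 counts per library, which limits the precision for ABCG1, LPL and FABP4. In ABCG1 most of the spread went with the experiment, which took 62.4% of the sum of squares, against 2.38% for the rest.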

Additional observations from a re-analysis of the deposited data

How the results depend on the processing

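Under RLE scaling, counts of members called stayed within 1.5 times for the 13 comparisons. With the experiment as a replicate block, 8 members were called for IL-4 in DNMAML, 5 in IRES, 6 in NIC1 and 12 in the mean response, against 1, 1, 2 and 5 without it, and the counts were 11 unstimulated and 9 with IL-4 for NIC1 against DNMAML and 7 and 5 for NIC1 against IRES. The block changed no other count. A replicate block per construct and number gave 12 in DNMAML (17% of all genes called), 11 in IRES (15%), 11 in NIC1 (14.3%) and 17 in the mean (29.6%). The counts that follow stand without shares over all genes and describe the fits only. The block without the 2 libraries in which most genes were detected (chosen after seeing the data) gave 6, 5, 6 and 10 for IL-4 in the same order, 11 and 7 against DNMAML, and 7 and 5 against IRES. Experiments 1 and 3 alone, also chosen after seeing the data, gave 4, 5, 4 and 8 for IL-4, 7 and 4 against DNMAML and 1 and 1 against IRES. DESeq2 called 3 members in IRES. Without a filter on low counts, 1 was called in NIC1, and 2 unstimulated and 1 with IL-4 in NIC1 against DNMAML. With only the groups compared, 0 were called for unstimulated NIC1 against DNMAML, and without the 2 libraries 1 was called in NIC1. Leaving out 1 library at a time gave 1 to 2 calls in IRES, 1 to 2 in NIC1, 5 to 7 in the mean, and 0 to 1 in each state of NIC1 against DNMAML. Blocked fits leaving out 1 library were run, after seeing the data, for single genes only. Taking only bases before the start, the STAT6-type palindrome was in 3.03% of member promoters, against 6.55% of all genes. Beyond fewer libraries or genes in a fit, the cause of these shifts was not tested. Depth left FABP4, with 61 counts in all, untested.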
